A study of Mus musculus with 6 samples.

Results

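The 9 genes described here mark striatal-type projection neurons, the spiny GABAergic output neurons of the striatum, and were read from RNA precipitated with phosphorylated ribosomes of the mouse vBNST, the ventral part of the bed nucleus of the stria terminalis. They were chosen by name from the 29547 rows of the deposited table. There was 1 marker of the direct pathway (Drd1), 2 of the indirect pathway (Drd2 and Adora2a) and 6 shared by both (Ppp1r1b, Rgs9, Bcl11b, Rxrg, Foxp1 and Rasgrp2), and all 9 were in the table and passed the filter on low values. The 6 libraries, 3 labelled Con and 3 labelled CS, came from tissue taken 90 min after a CS+ or a CS- test. In all 6 the ribosomes were pulled down through the phosphorylated form of S6, which belongs to their small subunit and is phosphorylated in active neurons, and rRNA was depleted. The labels give neither strain, genotype nor age, do not say what Con animals received or to which test CS refers, and give 6 different antibody catalogue numbers. They do not say that libraries of a group came from separate mice, and a p-value here measures no more than the spread among the 6 libraries, which may be technical. CS was compared with Con.

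Direct-pathway neurons project to the output nuclei of the basal ganglia and carry the D1 dopamine receptor, which raises cAMP. Indirect-pathway neurons reach the same nuclei through the external pallidum, and carry the D2 dopamine receptor, which lowers cAMP, together with the adenosine receptor encoded by Adora2a, which raises it. The bed nucleus is a GABAergic nucleus beside the ventral striatum, and dopamine receptor genes are also expressed in its own neurons. The markers therefore do not by themselves say whether the RNA came from neurons of the nucleus or of the striatum next to it.

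Libraries held between 765769 and 2342686 assigned reads, 3394548 in Con and 5286642 in CS. At least 1 read was found for 15407 to 19254 rows in Con and for 18583 to 22999 rows in CS. Levels are given as RPKM, reads per kilobase of exon and per 1e6 assigned reads, after subtracting on the log2 scale the median deviation of each library from the mean of all 6. Deposited CS values lay 0.37 higher on the log2 scale at that median than Con values, and this scaling removed the shift, so a change below is relative to the median row. Of the 16 genes listed for vBNST neurons, not all particular to them, every gene was in the table. Among them were Gad2 at 15.2 ± 3.02 RPKM in Con (SD, n = 3 in every group), Slc32a1 at 13 ± 3.17 and Lhx8 at 9.84 ± 0.890. Esr1 had no read in Con library 2, and Nts and Tac2 had none in Con library 1. Prlr and Cyp19a1, with 20 and 2 reads over all libraries, did not pass the filter.

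After median scaling all 9 markers had a lower estimate in CS than in Con, against 48% of all rows, while with the values as deposited 5 did, against 33.6%, and with voom on library totals 5 did, against 26.8%. None of the 9 passed the test over the 20550 rows tested (limma, adjusted p from 0.154 to 0.952), against 0.793% of all rows called lower and 0.175% called higher. At an unadjusted p under 0.05 there were 4 lower and 0 higher members, Ppp1r1b, Bcl11b, Rxrg and Foxp1, while 8.77% of all rows were lower and 3.77% higher at that p. In the same 4 the CS libraries all lay below the Con libraries, which held for 15.4% of all rows (7.57% had all CS libraries above). Groups were separate for 2 members as deposited (6.5% of all rows), for 2 after quantile normalization (9.98%) and for 2 with voom on library totals (8.44%). The other 5 members, the 3 receptor genes, Rgs9 and Rasgrp2, had overlapping groups. The median log2 fold change of the 9 was -0.61 against 0.03 over all rows, and -0.24 against 0.41 as deposited. By limma voom on the recovered reads 1 member passed, Bcl11b (limma voom adjusted p = 0.0237), against 6.16% of 10463 rows called lower. When limma on log2 RPKM was run on those rows alone, none of the 9 passed, against 3.96% called lower. Fewer cells of a type and less RNA precipitated per cell cannot be told apart in such samples. A difference in depth between the groups moved with these values, and its part was not tested.

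**Figure D1:**
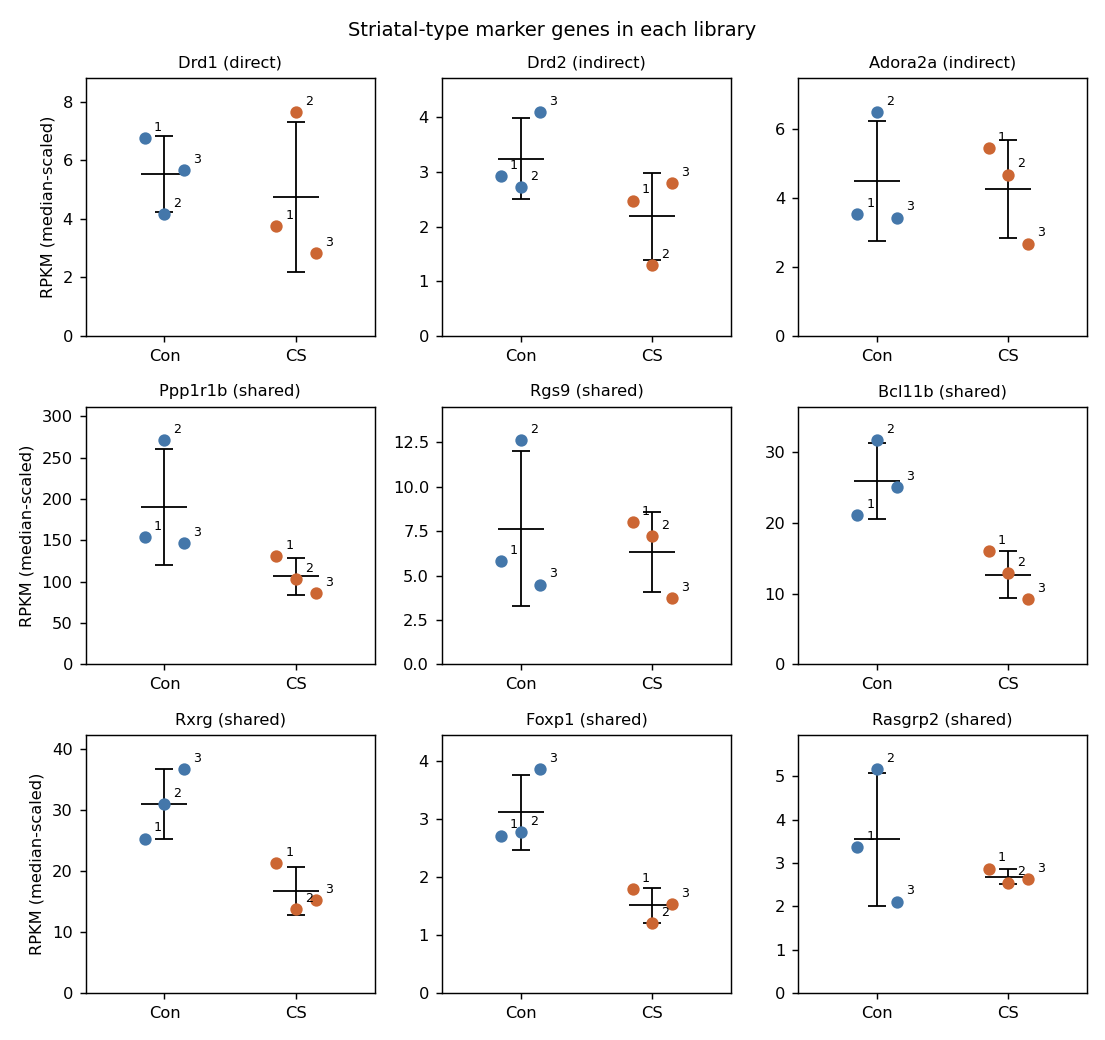
Median-scaled RPKM of the 9 markers in each library, with points numbered by replicate, a bar at the group mean and whiskers of 1 SD (n = 3). The CS points of Ppp1r1b, Bcl11b, Rxrg and Foxp1 lie below every Con point, and the groups of the other 5 genes overlap.

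Drd1 encodes the D1 dopamine receptor, coupled to the stimulatory G protein of the striatum. Its row lies on chromosome 13 (GRCm38, 54051186 to 54055658, minus strand). In Con, Drd1 stood at 6.76 RPKM in library 1, 4.17 in library 2 and 5.67 in library 3, and in CS at 3.74, 7.65 and 2.83 RPKM in the same order, which is kept below. The highest and the lowest value were both in CS, so the Con values lay inside the CS range. The log2 fold change was -0.33 ± 0.42 SE (95% interval -1.34 to 0.69, limma adjusted p = 0.798) on 56 reads in Con and 92 in CS, and 0.05 with the values as deposited.

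Drd2 encodes the D2 dopamine receptor, coupled to inhibitory G proteins, and lies on chromosome 9 (GRCm38, 49340627 to 49408177, plus strand). It stood at 2.92, 2.72 and 4.10 RPKM in Con and at 2.48, 1.29 and 2.80 RPKM in CS. Only CS library 3 lay above the lowest Con library. CS differed from Con on the log2 scale by -0.61 ± 0.41 SE (95% interval -1.60 to 0.39, limma adjusted p = 0.617). Drd2 was the thinnest member, with 25 reads in Con and 36 in CS.

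Adora2a encodes the adenosine receptor that opposes D2 signalling in indirect-pathway neurons (chromosome 10, GRCm38, 75316943 to 75334788, plus strand). It stood at 3.53, 6.49 and 3.43 RPKM in Con and at 5.43, 4.67 and 2.67 RPKM in CS. Con library 2 was the highest and CS library 3 the lowest, and CS libraries 1 and 2 lay above Con libraries 1 and 3. The log2 estimate of CS minus Con was -0.08 ± 0.40 SE (95% interval -1.04 to 0.89, limma adjusted p = 0.952), and 0.29 with the values as deposited. Without Con library 2 it was 0.20 and without CS library 3 it was 0.22.

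The upstream windows of the receptor pair and of Rxrg, a shared marker whose groups did not overlap, are shown because they contrast a gene of each pathway with a gene of both. Sequences come from RefSeq (GRCm38.p6), where 7 of the 9 members were matched (all but Adora2a and Ppp1r1b), and are those nearest the start of the deposited row, cut so that they end before the first annotated base of the gene. Both strands were searched for the GC box GGGCGG, the CCAAT box, the cAMP response motif TGACG, the nuclear receptor motif AGGTCA and the TATA box TATAAA, and capitals mark matches.
Drd1 (chr13:54055659-54055908, minus strand): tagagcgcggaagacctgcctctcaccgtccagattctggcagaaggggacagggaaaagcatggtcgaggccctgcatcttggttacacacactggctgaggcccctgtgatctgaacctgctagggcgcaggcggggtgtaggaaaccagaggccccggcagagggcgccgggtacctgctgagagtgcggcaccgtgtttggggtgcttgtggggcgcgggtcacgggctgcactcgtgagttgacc
Drd2 (chr9:49340153-49340359, plus strand): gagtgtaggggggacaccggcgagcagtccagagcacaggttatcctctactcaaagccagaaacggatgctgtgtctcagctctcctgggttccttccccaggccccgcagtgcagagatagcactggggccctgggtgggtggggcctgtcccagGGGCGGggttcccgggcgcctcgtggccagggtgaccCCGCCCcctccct
Rxrg (chr1:167598112-167598361, plus strand): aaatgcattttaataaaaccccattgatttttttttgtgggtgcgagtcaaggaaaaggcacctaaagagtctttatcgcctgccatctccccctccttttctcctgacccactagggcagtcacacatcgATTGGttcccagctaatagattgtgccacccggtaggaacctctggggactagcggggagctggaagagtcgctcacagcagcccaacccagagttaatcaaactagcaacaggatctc
The Drd1 window of 250 bases held none of the 5 motifs and was 64% G and C. The Drd2 window of 207 bases held 2 GC boxes, which 26% of all windows of that length contain at least once, and was 67.6% G and C. The Rxrg window of 250 bases held 1 CCAAT box on the reverse strand, a motif in 33.8% of windows of that length, and was 49.2% G and C. Drd1 and Rxrg each have 1 more window at another start site, not printed here, which hold 1 GC box and 1 nuclear receptor motif. A match is a run of letters and not evidence of binding.

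Within a library the receptors can be set against each other free of the scaling. Drd1 exceeded Drd2 per length in all 6 libraries, by 1.18, 0.60 and 0.46 in Con and by 0.58, 2.49 and 0.02 in CS on the log2(RPKM + 0.1) scale. In CS library 2 Drd1 had 41 reads and Drd2 had 5, and in CS library 3 they had 28 and 20. The CS mean was 1.03 ± 1.30 and the Con mean 0.74 ± 0.38, a difference of 0.28 (exact two-sided permutation p = 0.9), and without CS library 2 the difference was -0.45. Drd1 minus Adora2a was 0.33 ± 0.84 in Con and 0.08 ± 0.61 in CS, a difference of -0.25 (exact permutation p = 0.7) that turned to 0.04 without Con library 1 and to 0.06 without CS library 1. Drd2 minus Adora2a, both of the indirect pathway, was -0.41 ± 0.75 in Con and -0.94 ± 0.94 in CS, a difference of -0.53 (exact permutation p = 0.5). All 3 pairs had overlapping groups and an adjusted p of 0.9, and 3 libraries against 3 cannot give a p below 0.1.

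**Figure D2:**
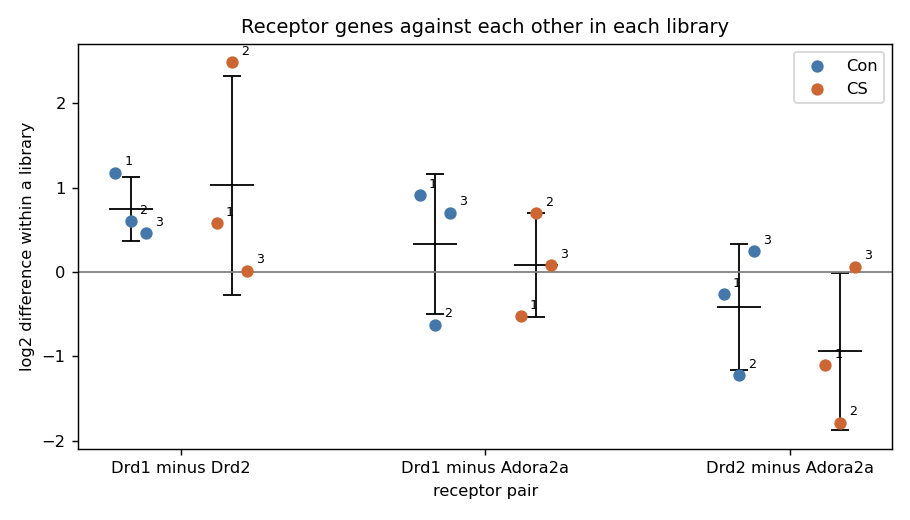
Difference in log2(RPKM + 0.1) between receptor genes of the same library for 3 pairs, with points numbered by replicate, a bar at the group mean and whiskers of 1 SD (n = 3). Con and CS points overlap in every pair, and Drd1 minus Drd2 in CS spans 0.02 to 2.49.

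Among the shared markers, Ppp1r1b encodes a phosphoprotein that protein kinase A turns into an inhibitor of protein phosphatase 1, which joins dopamine signals to the phosphorylation of many targets. The gene lies on chromosome 11 (GRCm38, 98348404 to 98357796, plus strand). It stood at 154, 271 and 146 RPKM in Con and at 131, 103 and 86.4 RPKM in CS. Con library 2 was well above the rest, and the highest CS library lay just under the lowest Con library. The log2 fold change was -0.79 ± 0.29 SE (95% interval -1.48 to -0.11, limma adjusted p = 0.324), and -0.42 with overlapping groups as deposited.

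The exons of Ppp1r1b share 460 bases with 1700003D09Rik on the opposite strand, 15.7% of the Ppp1r1b exon length and 33.1% of that of the other row. The other row held reads equal to between 79.9% and 87.9% of those of Ppp1r1b in each library, and its log2 fold change was -0.77 ± 0.28 SE (limma adjusted p = 0.326). The strand setting of the counting is not given in the sources used here, so reads of both genes over the shared bases cannot be told apart.

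Bcl11b encodes a zinc finger transcription factor needed for the differentiation of striatal projection neurons (chromosome 12, GRCm38, 107910403 to 108003602, minus strand). It stood at 21.1, 31.7 and 25.1 RPKM in Con and at 16.0, 12.9 and 9.28 RPKM in CS. The groups were separate, as they also were with the values as deposited. The log2 fold change was -1.04 ± 0.26 SE (95% interval -1.67 to -0.41) on 646 reads in Con and 596 in CS, the smallest p of the 9 (limma unadjusted p = 0.00618, adjusted p = 0.154). By voom it was -1.06 ± 0.24 SE and passed (limma voom adjusted p = 0.0237). With voom and library totals it was -0.69 and did not pass (limma voom adjusted p = 0.0932), and over the 16 alternatives the adjusted p ran from 0.0237 to 0.501 with estimates from -1.21 to -0.67.

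Rxrg encodes the gamma form of the retinoid X receptor, a nuclear receptor that pairs with retinoic acid receptors in the striatum (chromosome 1, GRCm38, 167598384 to 167639623, plus strand). It stood at 25.3, 30.9 and 36.7 RPKM in Con and at 21.2, 13.7 and 15.2 RPKM in CS. All CS values lay below all Con values, though with the values as deposited the groups overlapped. The log2 estimate of CS minus Con was -0.89 ± 0.23 SE (95% interval -1.45 to -0.34, limma adjusted p = 0.167), and -0.52 as deposited.

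Foxp1 encodes a forkhead transcription factor of both projection neuron classes (chromosome 6, GRCm38, 98925338 to 99522721, minus strand). It stood at 2.71, 2.77 and 3.86 RPKM in Con and at 1.79, 1.2 and 1.53 RPKM in CS. The groups were separate, as they also were with the values as deposited. On the log2 scale CS minus Con was -1.02 ± 0.37 SE (95% interval -1.90 to -0.13, limma adjusted p = 0.327) on 130 reads in Con and 127 in CS. Foxp1 shares 300 exon bases with Gm20696 on the same strand, 2.18% of its exon length. Reads of Gm20696 came to between 25% and 36.1% of those of Foxp1 in Con and between 53.5% and 66.1% in CS, and its own log2 estimate was -0.13 ± 0.38 SE (limma adjusted p = 0.92). The part of the shared bases in the value of Foxp1 was not tested.

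Rgs9 encodes a regulator of G protein signalling that shortens dopamine receptor responses in the striatum (chromosome 11, GRCm38, 109225355 to 109298129, minus strand). It stood at 5.83, 12.6 and 4.49 RPKM in Con and at 7.99, 7.21 and 3.74 RPKM in CS. Con library 2 held more than every other library, and CS libraries 1 and 2 lay above Con libraries 1 and 3. CS differed from Con on the log2 scale by -0.21 ± 0.47 SE (95% interval -1.35 to 0.93, limma adjusted p = 0.892), 0.20 without Con library 2, 0.13 without CS library 3 and 0.16 as deposited.

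Rasgrp2 encodes a calcium- and diacylglycerol-regulated exchange factor for the small GTPase Rap1 (chromosome 19, GRCm38, 6399340 to 6415216, plus strand). It stood at 3.37, 5.17 and 2.11 RPKM in Con and at 2.87, 2.55 and 2.62 RPKM in CS. The 3 CS libraries lay close together inside the Con range. On the log2 scale CS minus Con was -0.32 ± 0.39 SE (95% interval -1.26 to 0.62, limma adjusted p = 0.792), and 0.05 as deposited. Without Con library 2 it was -0.02.

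**Figure D3:**
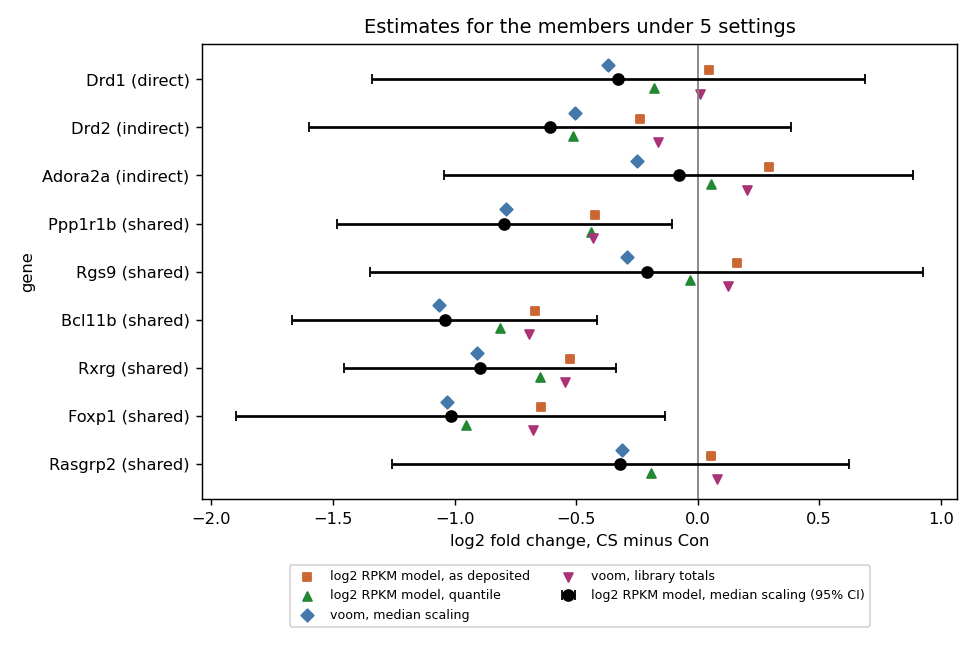
Log2 fold change, CS minus Con, of the 9 markers, with the 95% interval of the log2 RPKM model after median scaling and the estimates under other scalings and by voom. The estimates of Drd2, Ppp1r1b, Bcl11b, Rxrg and Foxp1 lie below 0 under all 5 settings, and the other 4 cross 0 with the values as deposited and with library totals.

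The order of the levels per length was the same in both groups. Ppp1r1b was highest, at 190 ± 69.8 RPKM in Con and 107 ± 22.5 in CS, with no overlap with the next gene. Rxrg (31.0 ± 5.71 and 16.7 ± 3.96) and Bcl11b (26 ± 5.34 and 12.7 ± 3.36) followed and overlapped each other, and Bcl11b did not overlap Rgs9, the fourth. From Rgs9 (7.64 ± 4.34 and 6.31 ± 2.26) through Drd1, Adora2a, Rasgrp2 and Drd2 to Foxp1 (3.11 ± 0.646 and 1.51 ± 0.300), each gene overlapped the next in both groups. By mean level Ppp1r1b stood at the 98.7th percentile of tested rows, Drd1 at the 66.8th, Adora2a at the 62.6th and Drd2 at the 49.9th. The receptor genes that define the pathways were thus measured at far lower levels than the shared markers Ppp1r1b, Rxrg and Bcl11b.

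Within a group the members moved partly together. Of the 9, 8 lay above their own group mean in CS library 1 and 6 in Con library 2. In Con library 1 and in CS library 3 only 2 did. In Con, library 2 was the highest for 5 of the 9 (Adora2a, Ppp1r1b, Rgs9, Bcl11b and Rasgrp2), library 3 for Drd2, Rxrg and Foxp1, and library 1 for Drd1. In CS, library 1 was the highest for 7, library 2 for Drd1 and library 3 for Drd2. Adora2a, Ppp1r1b, Rgs9, Bcl11b and Rasgrp2 were thus highest in Con library 2 and in CS library 1. Drd1 and Drd2 peaked elsewhere, on 148 and 61 reads over all libraries. The likeness of Con library 2 and CS library 1 was not confined to the members. Over 10463 rows their deviations from the group means correlated at 0.308, the highest value of any Con and CS pair. The highest Con library exceeded the lowest 2.80-fold for Rgs9 and 2.46-fold for Rasgrp2, but 1.42-fold for Foxp1 and 1.45-fold for Rxrg. The mean log2 level of the 6 shared markers minus that of Drd2 and Adora2a, free of the scaling, was 1.97, 2.16 and 1.78 in Con and 1.58, 1.78 and 1.45 in CS. CS library 2, at 1.776, and Con library 3, at 1.781, all but met. The same mean minus Drd1 was 1.43 ± 0.66 in Con and 1.04 ± 0.75 in CS and overlapped widely.

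**Figure D4:**
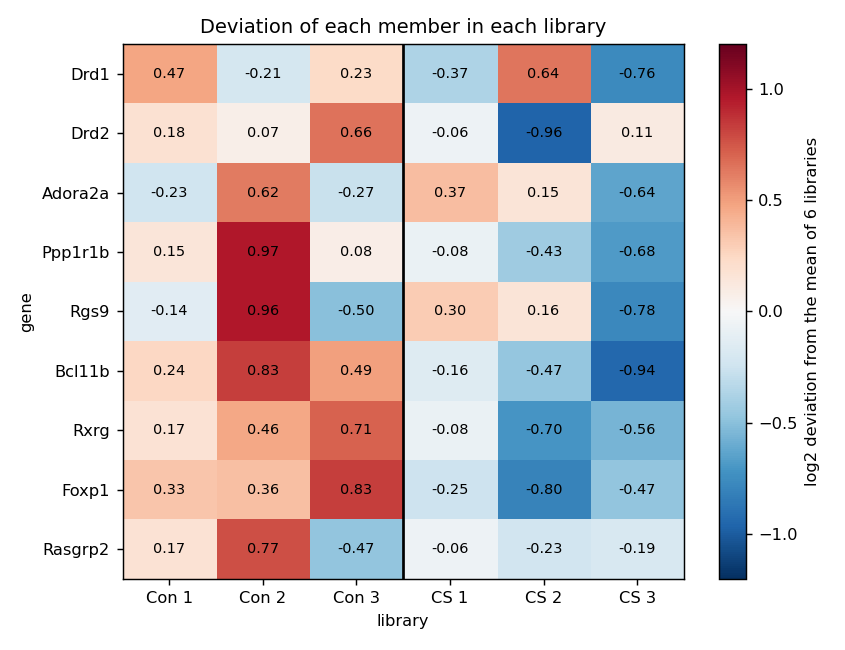
Log2 deviation of each marker in each library from its own mean over the 6 libraries, with Con to the left of the line and CS to the right. Ppp1r1b, Bcl11b, Rxrg and Foxp1 are above 0 in every Con library and below 0 in every CS library, while Drd1 is highest in CS library 2, at 0.64.

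Other markers of these neurons were divided. Of 7 other direct-pathway genes 2 had a lower and 5 a higher estimate, with a median of 0.33 (0.71 as deposited) and none called by limma; only Sfxn1, which encodes a mitochondrial serine carrier, had separate groups, at 7.13 ± 0.271 RPKM in Con and 3.89 ± 0.524 in CS (-0.87 ± 0.23 SE on the log2 scale, limma adjusted p = 0.165). Pdyn, the dynorphin precursor, rested on 12 reads in Con and 40 in CS (1.87 ± 1.25), and the substance P precursor Tac1 on 14 and 18 (-0.47 ± 0.66). Of 6 other indirect-pathway genes 3 were lower and 3 higher, with a median of -0.43 (-0.06 as deposited) and none called by limma. Penk, the enkephalin precursor, stood at 114, 120 and 97.9 RPKM in Con and at 166, 200 and 123 RPKM in CS, so every CS library lay above the Con libraries (0.53 ± 0.21 SE on the log2 scale, limma adjusted p = 0.373). The transcription factor genes Sp9 (-1.03 ± 0.20, limma adjusted p = 0.0879) and Six3 (-2.01 ± 0.52, limma adjusted p = 0.165) had all CS libraries below the Con libraries. By voom Sp9 was called lower (limma voom adjusted p = 0.0183, with 0.0183 to 0.50 over its 16 alternatives), and with voom on library totals Penk was called higher (0.0393, with 0.0393 to 0.698). Penk and the pair Sp9 and Six3, all listed as indirect-pathway genes, thus had estimates of opposite sign. Whether their RNA came from the same cells was not tested.

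Among 14 further genes of both pathways, estimates were lower for 9 and higher for 5, with a median of -0.16 (0.21 as deposited) and none called by limma. At an unadjusted p under 0.05 there were 4 lower, while 8.77% of all rows were. Adcy5, the main adenylyl cyclase of these neurons, stood at 173, 188 and 153 RPKM in Con and at 60.5, 98.0 and 49.5 RPKM in CS (-1.36 ± 0.27 SE on the log2 scale, limma adjusted p = 0.086). Rarb, a retinoic acid receptor that pairs with Rxrg, was at 11.6 ± 3.47 and 3.66 ± 1.22 RPKM (-1.65 ± 0.36 SE, limma adjusted p = 0.105), and the homeobox factor Meis2 at 7.78 ± 1.81 and 4.05 ± 1.11 (-0.95 ± 0.31 SE). By voom 3 of the 14 were called lower, which were these 3 (limma voom adjusted p = 0.00467, 0.0261 and 0.0475), against 6.16% of 10463 rows. With voom on library totals their adjusted p was 0.0341, 0.0537 and 0.148. Over their 16 alternatives the adjusted p ran from 0.00467 to 0.275 for Adcy5, from 0.0261 to 0.289 for Rarb and from 0.0475 to 0.613 for Meis2.

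Downstream of the receptors, 15 of 18 signalling genes had a lower and 3 a higher estimate, with a median of -0.10 (0.28 as deposited). There were 2 that passed over all rows, both lower. Ppp1cc, a catalytic subunit of the protein phosphatase 1 that the Ppp1r1b product inhibits, fell from 49.8 ± 11 to 15.5 ± 1.5 RPKM (-1.66 ± 0.21 SE on the log2 scale, limma adjusted p = 0.0283). Gnao1, the inhibitory G protein subunit that D2 receptors couple to, fell from 50.1 ± 2.93 to 24 ± 2.88 RPKM (-1.06 ± 0.15 SE, limma adjusted p = 0.0385). Ppp1cc passed in 8 and Gnao1 in 4 of the 16 alternatives, with adjusted p up to 0.229 and 0.346, and both kept a lower estimate in all 16. Leaving out any 1 library ended the call of Gnao1 (limma adjusted p from 0.0689 without Con library 2 to 0.162 without CS library 1). It ended that of Ppp1cc for every library but Con library 2 (0.0177), with 0.0772 without Con library 3 to 0.137 without CS library 1. Calls over all rows moved as well. They were 163 lower and 36 higher with every library, 8 and 0 without CS library 1, and 219 and 78 without Con library 2. As deposited the adjusted p was 0.139 for Gnao1 and 0.0695 for Ppp1cc, neither past the threshold. The gene with the next smallest p, Rasgrp1, a relative of Rasgrp2, had 0.42 ± 0.42 SE.

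**Figure D5:**
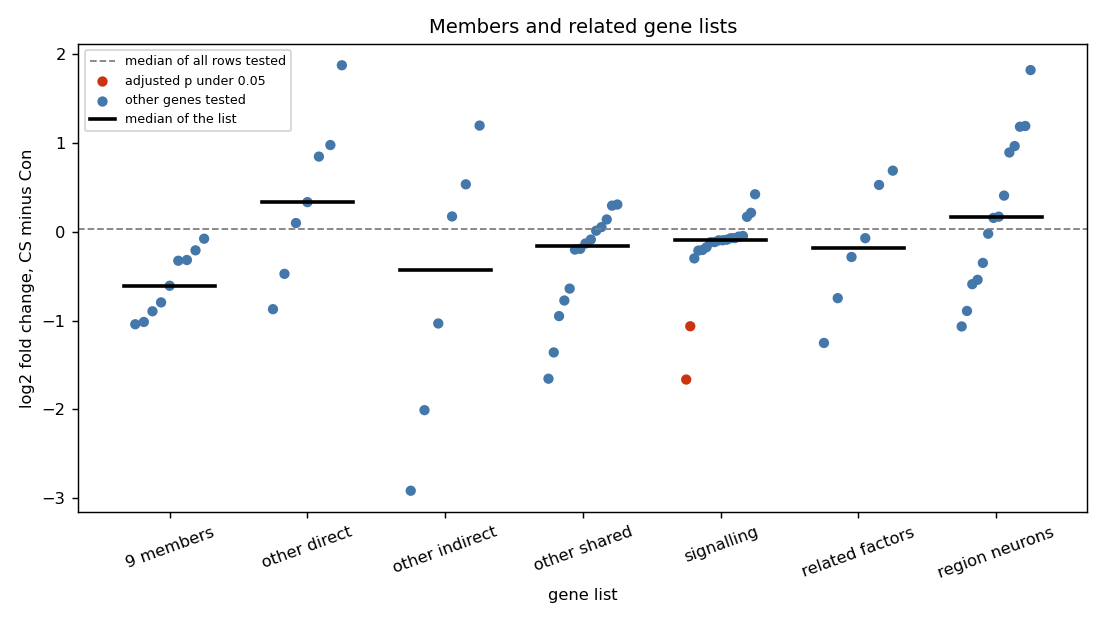
Log2 fold change, CS minus Con, of the genes tested in each list after median scaling, with a bar at the median of the list and a dashed line at the median of all rows tested (0.03). The 2 points past the threshold are Ppp1cc and Gnao1.

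Relatives of the receptors were thinly read. Of 5 other dopamine and adenosine receptor genes 2 were tested and neither was called. Adora1, the inhibitory adenosine receptor, stood at 4.81 ± 0.657 RPKM in Con and 6.56 ± 0.422 in CS with separate groups (0.44 ± 0.23 SE on the log2 scale, limma adjusted p = 0.492), and Drd3 had 2 reads in Con and 9 in CS. Drd4, Drd5 and Adora2b had 6, 14 and 2 reads in all and did not pass the filter. Of 6 transcription factors related to Bcl11b, Rxrg and Foxp1, 4 were lower and 2 higher, with none called by limma. Rxrb, which encodes another retinoid X receptor, was at 10.4 ± 0.648 and 4.37 ± 0.700 RPKM (-1.25 ± 0.22 SE, limma adjusted p = 0.0654), with an adjusted p from 0.0158, by voom, to 0.438 over the alternatives. Rxra (0.53 ± 0.34 SE) and Bcl11a (-0.75 ± 0.35 SE) had overlapping groups.

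Genes whose 6 library values lay closest to those of a member were sought among rows with at least 200 reads, by the root mean square difference of log2 deviations. The nearest to Drd1 were Gpr27 (0.0760), Brinp1 (0.0871) and Xpo7 (0.0972), and to Drd2 Kcna4 (0.0893), Gm9970 (0.0975) and Igdcc4 (0.142). The nearest to Ppp1r1b was its overlapping neighbour 1700003D09Rik (0.0470), followed by Arid1a (0.0842) and Fam63b (0.0883). These are the closest of 5404 rows (5403 for Ppp1r1b) in 6 libraries and share library and depth with the members.

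Median-scaled levels of other cell types were summed in each library. The 9 members summed to between 225 and 367 RPKM in Con and between 127 and 192 in CS, most of it Ppp1r1b. The 8 oligodendrocyte markers were also separate, at 175 to 298 RPKM in Con and 77.5 to 167 in CS, with 7 lower estimates and 1 higher (Mog) and none called by limma. The 5 vascular and ependymal markers were at 14.2 to 18.2 in Con and 11 to 12.6 in CS. With the values as deposited, the groups overlapped in each of these sums. The part of these cells in the values of the members was not tested.

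After median scaling the other marker sums overlapped between the groups. The 16 genes listed for the region's neurons summed to 113 to 144 RPKM in Con and 114 to 173 in CS. Of them 14 were tested, with 6 lower and 8 higher estimates. The list holds Gad1, Gad2 and Slc32a1 of GABAergic neurons in general, so its sum does not tell the region's neurons from striatal ones. The smallest p were those of the transcription factor gene Zfhx3 (-0.89 ± 0.22 SE, limma adjusted p = 0.141), of Lhx6 (-1.07 ± 0.31 SE, 0.214) and of the somatostatin gene Sst (1.19 ± 0.35 SE, 0.223), and Gad1 had 0.89 ± 0.32 SE (0.322). The 8 astrocyte markers were at 89.1 to 116 and 89.4 to 114, the 8 microglial markers at 37.4 to 57.2 and 31.8 to 41.1, and the 7 striatal interneuron markers at 24.4 to 36.1 and 20.8 to 28.3. The 7 glutamatergic markers were at 48.4 to 77.5 and 16.6 to 56.0. In that list Neurod6, a cortical factor, had no read in Con library 1 and CS library 1 and between 86 and 114 in each of the other 4 libraries. None of the lists of other cell types had a member called by limma over all rows; the counts at an unadjusted p under 0.05 were 2 lower and 2 higher for the region's neurons, 0 for interneurons, and 1 lower each for the glutamatergic (Neurod2, -1.17 ± 0.31 SE), astrocyte (S100b, -0.91 ± 0.29), microglial (Cx3cr1, -0.92 ± 0.25) and vascular and ependymal (Foxj1, -1.57 ± 0.36) lists. By voom Zfhx3, Lhx6, Cx3cr1 and Foxj1 were called lower (limma voom adjusted p = 0.0165, 0.0354, 0.0406 and 0.0479), and over the 16 alternatives their adjusted p reached 0.583, 0.531, 0.531 and 0.518.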

How the data were processed

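The 6 libraries, 3 Con and 3 CS, hold RNA bound to phosphorylated ribosomes. The deposited table gives RPKM per gene, made by the authors and not pooled over replicates. Per the submitters' processing notes, Trimmomatic 0.36 and featureCounts from Subread 1.5.1 were used, and GRCm38 and mm10 appear as builds. Neither an aligner nor a strand setting is given in the sources used here. RPKM times length gave whole reads (tolerance 0.01 read) for 100% of values above 0, so the reads behind each value were recovered. Libraries held 765769 to 2342686 reads.

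The test used the 20550 rows whose mean RPKM reached 0.5, on log2(RPKM + 0.1) after median scaling, by lmFit and trended eBayes of limma 3.58.1 (R 4.3.3), Benjamini-Hochberg adjustment over all of them and a threshold of 0.05. Fold changes are CS minus Con on the log2(RPKM + 0.1) scale, which understates the change of low genes. Receptor pairs were compared by exact permutation. Alternatives changed the pseudocount, the filter, the scaling or the variance trend, or used limma voom on recovered reads for rows with at least 60 reads, blocking on the replicate number, and each library left out in turn. Libraries of a group differed beyond sampling noise, with a chi-square per degree of freedom from 6.01 to 14.7, the highest between Con libraries 2 and 3. On simulated reads the log2 RPKM model called few changes of 2-fold, so a member that did not pass may still differ by that much, while voom called more. The false calls of the log2 RPKM model on simulated reads all had under 60 reads in all and no read in 1 of the groups. The simulation gave every gene the same dispersion, and its libraries differed only in depth and group. Its rates of calls therefore need not hold for the data. In the data 58 of the 199 rows called had under 60 reads, and every member had at least 61. The members and lists were chosen with earlier results of these data known. The genes named were drawn from the members, the 3 of each list with the smallest p, the highest in cell type lists, rows overlapping a member, and the nearest patterns. Gad1, Gad2, Slc32a1, Lhx8, Esr1, Nts and Tac2 were named outside this rule, after their values were seen. Gpr52 and Adora3 were not analysed here, and the values of 1 other named gene are not reported here.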

Additional observations from a re-analysis of the deposited data

How the results depend on the processing

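The directions of Ppp1r1b, Bcl11b, Rxrg, Foxp1 and Drd2 were lower in all 16 alternatives, with estimates from -0.96 to -0.42, -1.21 to -0.67, -1.06 to -0.52, -1.13 to -0.64 and -0.81 to -0.16. Of the 9 members 0 passed in 15 alternatives and 1, Bcl11b (-1.06), with voom and median scaling. As deposited, 5 members had a lower estimate and 2 had separate groups (6.5% of all rows, 33.6% with a lower estimate), with a median of -0.24; Drd1 (0.046), Adora2a (0.29), Rgs9 (0.16) and Rasgrp2 (0.054) turned above 0. With voom and library totals the same numbers were 5 and 2, the median was -0.16, and Drd1 (0.0099), Adora2a (0.20), Rgs9 (0.12) and Rasgrp2 (0.081) lay above 0. Neither setting uses the median scaling. With quantile normalization 2 members had separate groups (9.98% of all rows) and Adora2a had 0.055.

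Leaving out each library gave 7 to 9 members with a lower estimate, 4 to 5 with separate groups (19.8% to 21.1% of all rows, with 3 libraries against 2), 0 past the threshold and a median from -0.72 to -0.53. Adora2a ran from -0.26 to 0.22, above 0 without Con library 2 (0.20) or CS library 3 (0.22), and Rgs9 from -0.52 to 0.20, above 0 without the same libraries (0.20 and 0.13). Drd1 minus Drd2 ran from -0.45 to 0.79, Drd1 minus Adora2a from -0.73 to 0.06 and Drd2 minus Adora2a from -1.03 to -0.11; the first turned without CS library 2 (-0.45) and the second without Con library 1 (0.04) or CS library 1 (0.058). With the replicate number as a block no member passed (Bcl11b limma adjusted p = 0.501), and 0 of 20550 rows did, against 199 without it. Same-numbered libraries deviated from their group means with correlations of -0.40, -0.18 and -0.06. Such deviations sum to 0 over the 3 libraries of a group, so these values cannot decide whether the samples were paired. The receptor genes rest on 61 to 148 reads over the 6 libraries. The CV of Drd1 between CS libraries was 54.0%, on 23, 41 and 28 reads.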
